A study of Mus musculus with 13 samples.

Results

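The 10 imprinted genes H19, Igf2, Igf2r, Dlk1, Meg3, Peg3, Peg10, Plagl1, Grb10 and Mest were looked up by gene symbol in 6 ChIP-seq peak lists of 4T1 cells, a metastatic mammary tumor line derived from a BALB/cJ mouse. Of the 10 members, 6 were found in at least 1 list, and Igf2, Dlk1, Meg3 and Peg3 were found in none. The series compared sg-Ctrl cells, which carry a non-targeting guide RNA, with Nup210 knockout (KO) cells, in which CRISPR/Cas9 disrupted the gene for the nuclear pore protein NUP210. H3K4me3, a histone mark of active promoters, and H3K27me3, the mark of Polycomb repression, were profiled in sg-Ctrl and KO cells. NUP210 and a panel of nuclear pore proteins detected by 1 antibody (NPC) were profiled in sg-Ctrl cells only. The KO cells were 1 clone, labelled KO-N13, and each condition had 1 library, so a difference between clones or cultures cannot be told apart from an effect of the knockout and no test over replicates was possible. All intervals below are 95% intervals for counting error only.

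Imprinted genes are expressed from the maternal or the paternal chromosome alone, according to DNA methylation that is set in the egg or sperm and kept at imprinting control regions. They lie in clusters in which a control region, often the promoter of a long noncoding RNA, governs its neighbours. Many act on fetal growth and placental function, and the silent copy can carry H3K27me3 while the active copy carries H3K4me3. The lists do not separate the parental chromosomes, so each value below is a sum over all copies of a gene. It is also a sum over the cells of the culture. A mark on more cells and more of a mark per cell therefore cannot be told apart. The paper calls this cell line aneuploid, so maternal and paternal copies of a gene need not be equal in number. Copy number was not measured in sg-Ctrl or KO cells, and its part in the differences below was not tested.

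The lists hold peaks that the authors called with SICER against an IgG library, paired with the genes they meet. A member has H3K4me3 here when a peak lies within 4 kb of its transcription start site (TSS), and H3K27me3, NUP210 or NPC when a peak meets its gene body. The ChIP library, relative to the IgG library, was 3.16 times as deep in KO as in sg-Ctrl for H3K27me3 and 1.27 times for H3K4me3. Read counts were divided by this relative library size before KO and sg-Ctrl were compared, and the results are called scaled reads. Covered lengths are those of the peaks as called and were not adjusted for depth. The part of the deeper KO library in longer or joined H3K27me3 peaks was not tested. Peaks contained 7719297 and 26811061 reads in the H3K27me3 lists of sg-Ctrl and KO and 26236314 and 24873356 in the H3K4me3 lists. Among genes with known chromatin in epithelial cells, Epcam, Cdh1, Krt8 and Krt18 had H3K4me3 without H3K27me3 in both conditions, and the leukocyte gene Ptprc and the fibroblast collagen Col3a1 had H3K27me3 without H3K4me3. Pdgfra, a fibroblast receptor, and Gata4, a transcription factor of other lineages, also had H3K4me3 at the TSS, and the neural factor Pax6 had neither mark. At the TSS of Nup210 itself the peak had 885 and 913 reads, which does not check the knockout because the disruption need not remove the promoter.

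Promoters of Igf2r, Mest, Plagl1 and Grb10, the members with a histone mark and a promoter entry, are shown first. They are as RefSeq gives them on GRCm38.p6, the build whose gene positions the lists match. Each runs from 250 bases before to 50 bases after a TSS, on the transcribed strand, and capitals mark CpG dinucleotides, the sites of DNA methylation. Methylation was not measured, so the capitals do not show where an imprint is set.
Igf2r, chr17:12769657-12769956, minus strand: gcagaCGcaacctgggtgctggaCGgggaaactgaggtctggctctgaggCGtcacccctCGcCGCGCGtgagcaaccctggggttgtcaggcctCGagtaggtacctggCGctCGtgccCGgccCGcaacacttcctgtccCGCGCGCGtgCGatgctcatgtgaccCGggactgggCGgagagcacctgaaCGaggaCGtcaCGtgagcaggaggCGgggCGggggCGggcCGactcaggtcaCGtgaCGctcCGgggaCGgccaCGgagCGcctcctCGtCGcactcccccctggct
Mest, chr6:30737800-30738099, plus strand: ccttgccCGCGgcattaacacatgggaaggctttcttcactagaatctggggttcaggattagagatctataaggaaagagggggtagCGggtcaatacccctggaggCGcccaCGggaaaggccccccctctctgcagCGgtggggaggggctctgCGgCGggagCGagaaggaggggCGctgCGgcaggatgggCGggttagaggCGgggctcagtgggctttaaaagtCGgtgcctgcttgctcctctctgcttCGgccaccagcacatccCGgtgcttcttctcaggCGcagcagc
Plagl1, chr10:13090582-13090881, plus strand: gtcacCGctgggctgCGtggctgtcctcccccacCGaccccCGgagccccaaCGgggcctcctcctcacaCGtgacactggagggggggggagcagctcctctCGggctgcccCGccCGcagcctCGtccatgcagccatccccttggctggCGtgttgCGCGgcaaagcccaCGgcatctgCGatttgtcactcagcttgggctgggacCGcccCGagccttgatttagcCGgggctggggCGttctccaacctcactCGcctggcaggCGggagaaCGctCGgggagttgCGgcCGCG
Grb10, most upstream start, chr11:12037371-12037670, minus strand: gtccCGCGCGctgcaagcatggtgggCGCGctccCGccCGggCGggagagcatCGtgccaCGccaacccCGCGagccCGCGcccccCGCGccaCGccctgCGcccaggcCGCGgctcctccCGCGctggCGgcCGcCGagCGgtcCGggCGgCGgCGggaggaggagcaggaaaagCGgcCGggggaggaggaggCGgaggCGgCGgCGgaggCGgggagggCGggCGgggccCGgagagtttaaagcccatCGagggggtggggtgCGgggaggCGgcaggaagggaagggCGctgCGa
Grb10, internal start, chr11:12027922-12028221, minus strand: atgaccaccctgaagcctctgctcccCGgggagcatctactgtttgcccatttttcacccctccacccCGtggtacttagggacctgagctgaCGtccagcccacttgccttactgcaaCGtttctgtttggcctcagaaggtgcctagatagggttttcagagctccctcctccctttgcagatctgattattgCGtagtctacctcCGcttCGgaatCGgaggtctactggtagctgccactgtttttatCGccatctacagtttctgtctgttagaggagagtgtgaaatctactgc

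These promoters held 34 CpGs at Igf2r, 17 at Mest, 26 at Plagl1, 45 at the most upstream Grb10 start and 9 at the internal Grb10 start, against a median of 7 over 32841 RefSeq promoters. The most upstream Grb10 promoter had more CpGs than 98.1% of these, and the Igf2r promoter more than 92.3%. In all 300 bases, the Igf2r and Mest promoters lay inside H3K4me3 peaks in both conditions and outside H3K27me3 peaks. The Plagl1 promoter lay inside an H3K27me3 peak for 300 of its bases in sg-Ctrl and 0 in KO. The internal Grb10 promoter was the converse, with 0 bases inside H3K27me3 in sg-Ctrl and 222 in KO, while the most upstream Grb10 promoter lay outside the peaks of both marks in both conditions. The letters TGCCGC, the core motif of the imprint-keeping zinc finger protein ZFP57, were searched on both strands and occurred in 11.6% of all promoters. With overlapping promoters of a gene counted once, they were found in 5 of the 14 promoters of the 8 members with an entry, among them 2 matches at Mest and 1 each at Plagl1 and the most upstream Grb10 start. Nothing about ZFP57 binding follows from these matches. H19 and Peg10 had no entry.

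H3K4me3 was present at H19, Igf2r and Mest, H3K27me3 at Peg10, Plagl1 and Grb10, and none of the 10 carried both. The same members carried each mark in sg-Ctrl and in KO, so no member gained or lost a mark as listed. Most genes did the same. H3K4me3 was at 12629 RefSeq genes in either condition and at 12197 genes in both, and H3K27me3 at 5795 and 4231. Among 26216 RefSeq genes, 48.2% had H3K4me3 in either condition, 22.1% had H3K27me3 and 3.39% had both, against 3, 3 and 0 of the 10 members. NUP210 peaks met 2 members, Peg10 and Grb10, where 23.8% of all genes had one. NPC peaks met only Grb10, where 21.6% of all genes had one. None of these counts was far from the share over all genes.

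H19, the maternally expressed noncoding RNA that shares an imprinting control region with Igf2, had more H3K4me3 reads in KO. Its peak did not cover the TSS but lay 2.05 to 2.65 kb upstream of it, at chr7:142580200-142580799 in sg-Ctrl and chr7:142580000-142580799 in KO, in the stretch where the control region of this cluster is known to lie. Its reads numbered 106 for sg-Ctrl and 301 for KO, with 19 IgG reads in both lists, and the authors' fold over IgG was 5.26 and 11.8. Per kb of peak, scaled reads came to 167 (136 to 201) for sg-Ctrl and 279 (249 to 313) for KO. The log2 ratio of KO over sg-Ctrl was 0.75 (0.42 to 1.08), higher than the ratio of 99.0% of genes. It stayed below the 2-fold limit on this scale and was 1.16 when total reads of the peak were compared instead of reads per kb. Even so, the H19 peak was a weak one, with only 7.04% of genes lower in sg-Ctrl and 26.3% in KO.

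Igf2r, the maternally expressed receptor that clears the growth factor IGF2 from the cell surface, had less H3K4me3 in KO. Its peak covered the TSS in both lists, at chr17:12767000-12769999 in sg-Ctrl and chr17:12768000-12770399 in KO, and was 3 and 2.4 kb wide. The sg-Ctrl library gave 1784 reads there and the KO library 773, with 27 and 32 IgG reads, and the authors' fold over IgG was 62.3 and 17.9. Scaled reads per kb were 561 (535 to 587) and 239 (222 to 256), which gives a log2 ratio of -1.23 (-1.35 to -1.11). The ratio of 3.25% of genes was lower. On this chromosome the median ratio was -0.43 over 632 genes.

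Mest, a paternally expressed gene for a hydrolase-like protein of the endoplasmic reticulum, differed little. Its peak covered the RefSeq starts near position 30738050, at chr6:30737600-30739599 in sg-Ctrl and chr6:30737800-30739799 in KO, and the start at 30733506 was covered in neither. The reads numbered 680 and 911 in turn. Scaled reads per kb were 320 (297 to 346) and 338 (316 to 361), and the log2 ratio of 0.08 had an interval that spans 0 (-0.07 to 0.22). The authors' fold over IgG went the other way, 2564 in sg-Ctrl and 56.3 in KO, because the sg-Ctrl peak had 0 IgG reads, for which the deposited fold uses 0.25, and the KO peak had 12.

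**Figure D1:**
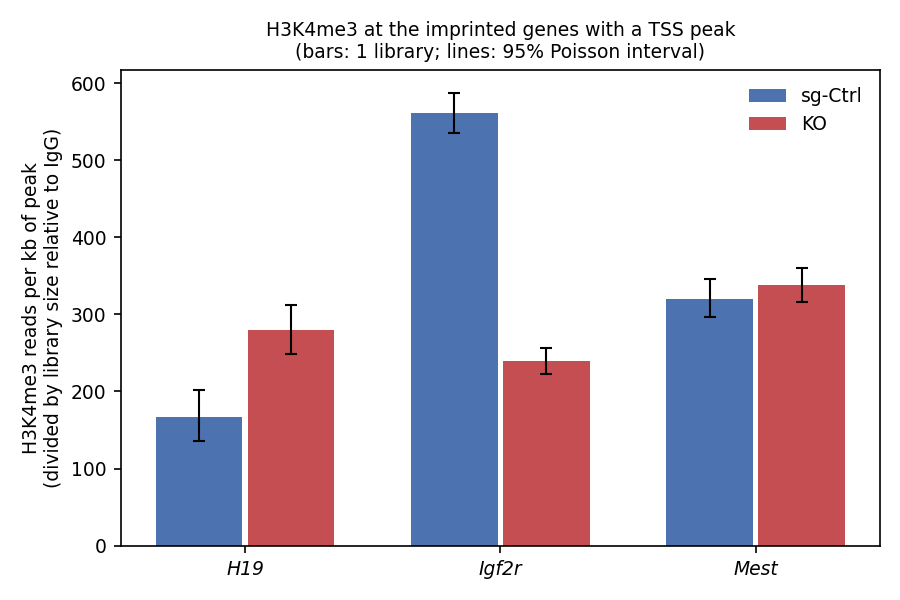
Scaled H3K4me3 reads per kb of peak (vertical axis) at H19, Igf2r and Mest in the sg-Ctrl and KO library, with exact 95% Poisson intervals as lines. The intervals of the libraries do not overlap at H19 (167 and 279) or Igf2r (561 and 239) and overlap at Mest (320 and 338).

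**Figure D2:**
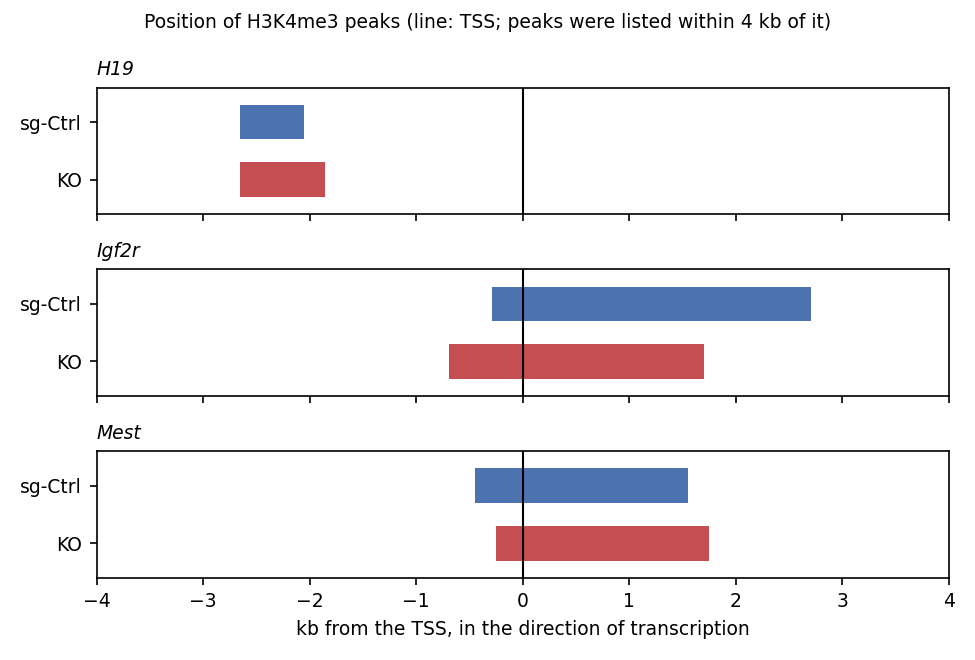
Position of the H3K4me3 peaks of H19, Igf2r and Mest in kb from the TSS (horizontal axis), with negative values upstream. The H19 peaks end 2.05 kb before the TSS in sg-Ctrl and 1.85 kb before it in KO, and those of Igf2r and Mest cover it.

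These ratios were read against a shift of all genes. The median log2 ratio over 12197 genes with a TSS peak in both lists was -0.50, and 9.66% of genes were at least 2-fold lower in KO while 0.525% were at least 2-fold higher. Of the 3 members with H3K4me3, 1 was at least 2-fold lower, Igf2r, and none was 2-fold higher. Relative to the median gene, the log2 ratio was -0.73 at Igf2r, 0.58 at Mest and 1.25 at H19, so that H19 was then past the 2-fold limit and Igf2r was not. With libraries scaled by the reads of overlapping peaks, the same 3 values were -0.81, 0.50 and 1.17. Both scalings add the same amount to every gene and so cannot change the order of the members. By the authors' fold over IgG, Mest at -5.51 was below Igf2r at -1.80, through its 0 IgG reads in sg-Ctrl. In reads per kb, 91.3% of genes had a lower ratio than Mest.

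**Figure D3:**
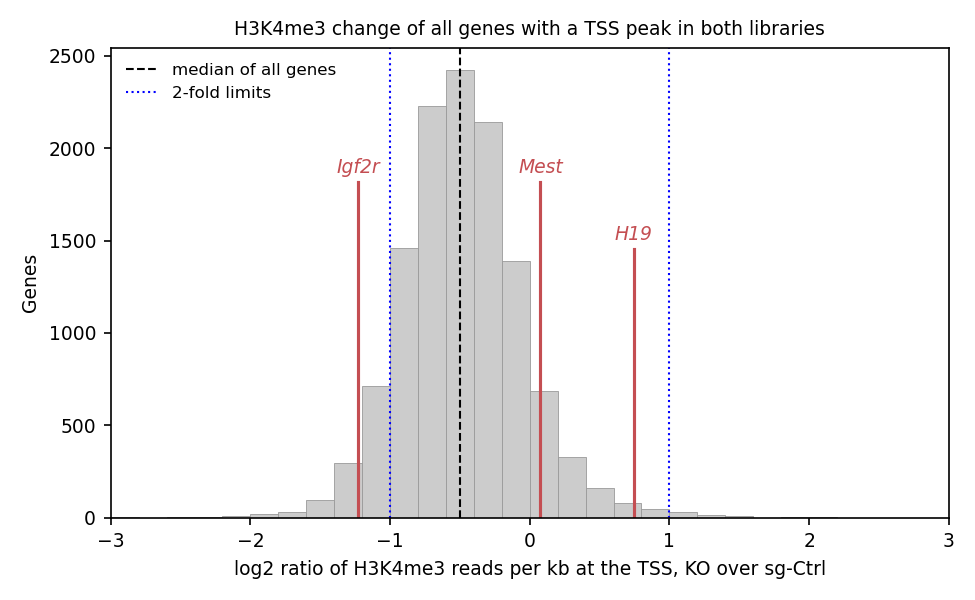
Distribution of the log2 ratio of H3K4me3 reads per kb, KO over sg-Ctrl (horizontal axis), over 12197 genes, with the members as red lines. Igf2r (-1.23) is left of the median of all genes (-0.50, dashed), and Mest (0.08) and H19 (0.75) are right of it, inside the 2-fold limits (dotted).

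Grb10, an adaptor protein that restrains insulin and growth factor receptor signalling, is expressed from the maternal copy in most tissues and from the paternal copy, by an internal promoter, in neurons. Its H3K27me3 peaks, as called and without adjustment for depth, covered more of the gene in KO than in sg-Ctrl. The gene lies at chr11:11930499-12037420 on the minus strand. In sg-Ctrl a single peak, chr11:11907000-12004999 with 3319 reads and a fold over IgG of 3.21, covered 74.5 kb or 69.7% of the gene. In KO a peak of 147 kb, chr11:11876000-12022999 with 17974 reads and a fold of 4.18, and another of 7 kb, chr11:12028000-12034999 with 659 reads and a fold of 3.33, together covered 99.5 kb or 93.1%. The added cover was at the 5′ end, where the nearest sg-Ctrl peak ended 32.4 kb short of the most upstream start and the nearest KO peak 2.42 kb short. Beyond the 3′ end, the KO peak ran on into Ddc, a neighbouring imprinted gene for DOPA decarboxylase, where sg-Ctrl had a separate peak at chr11:11876000-11902999.

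A stretch of 5 kb between the KO peaks, chr11:12023000-12027999, stayed without a peak. The internal Grb10 start at 12027971 lay in it, 29 bp from the upstream KO peak and 23.0 kb from the sg-Ctrl peak. Over the joined region of 154 kb, scaled H3K27me3 reads per kb were 30.4 in the sg-Ctrl list and 45.2 in the KO list, with a log2 ratio of 0.57 (0.52 to 0.62). The sg-Ctrl peaks filled 125 kb of this region, and the other 29 kb entered with no sg-Ctrl reads, so this ratio follows in part from the longer KO peaks. Counted over the peaks of the respective list alone, they were 37.4 and 45.2, with a log2 ratio of 0.27.

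Plagl1, a paternally expressed zinc finger transcription factor that arrests the cell cycle and regulates other imprinted genes, kept H3K27me3 over most of its gene body and had it at the TSS only in sg-Ctrl. The gene lies at chr10:13090788-13131695 on the plus strand. In sg-Ctrl there were 2 peaks, chr10:13021000-13117999 with 3871 reads and a fold of 4.23 and chr10:13122000-13169999 with 1725 reads and a fold of 4.31, with a gap of 4 kb between them inside the gene. In KO there was 1 peak, chr10:13093000-13169999, with 6460 reads and a fold of 2.95. It bridged the gap and began 2.21 kb downstream of the TSS.

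The peaks covered 36.9 kb or 90.2% of the gene in sg-Ctrl and 38.7 kb or 94.6% in KO. Counted over the peaks of the respective list alone, scaled reads per kb were 45.6 for sg-Ctrl and 31.4 for KO, with a log2 ratio of -0.54. Over the joined region of 149 kb they were 44.4 and 16.2, with a log2 ratio of -1.45 (-1.50 to -1.40). This second value counts 69.8 kb upstream of the gene as free of KO reads. No gene of the lists lies in that stretch, so a KO peak confined to it would not have been listed, and a loss of H3K27me3 there cannot be told apart from a peak left out of the list.

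Peg10, a paternally expressed gene that derives from a retrotransposon and is needed for the placenta, had H3K27me3 on 5.52 kb or 41.8% of its body in both conditions. The gene lies at chr6:4747306-4760516 on the plus strand and shares its promoter region with Sgce, which is transcribed the other way. Its wide peak ran from inside the gene past its end, at chr6:4759000-4802999 with 2018 reads and a fold of 3.44 in sg-Ctrl and at chr6:4758000-4802999 with 5777 reads and a fold of 3.04 in KO. The other peak was small. In sg-Ctrl it lay at chr6:4750000-4753999 with 242 reads and a fold of 1.86, and in KO at chr6:4750000-4752999 with 370 reads and a fold of 1.02, whose FDR of 0.332 did not separate it from IgG. Without that KO peak, which an FDR limit of 0.01 removes, 2.52 kb of Peg10 were covered in KO. Among peaks with a fold of at least 2, the covered length was 1.52 kb in sg-Ctrl and 2.52 kb in KO.

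The TSS of Peg10 was covered in neither condition. A stretch of 4 kb between the last Sgce peak and the first Peg10 peak, around the start of both genes, was without H3K27me3 in sg-Ctrl and in KO alike. Scaled reads per kb over the joined regions were 54.5 for sg-Ctrl and 46.9 for KO, with a log2 ratio of -0.22 (-0.29 to -0.15). For comparison, the 832 H3K27me3 peaks whose position was identical between the lists had a median log2 ratio of -0.18, and 26.4% of them were above 0. Of the 3 members with H3K27me3, Grb10 was the only one with a higher read density in KO, per kb of the joined region or of the peaks of the respective list.

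**Figure D4:**
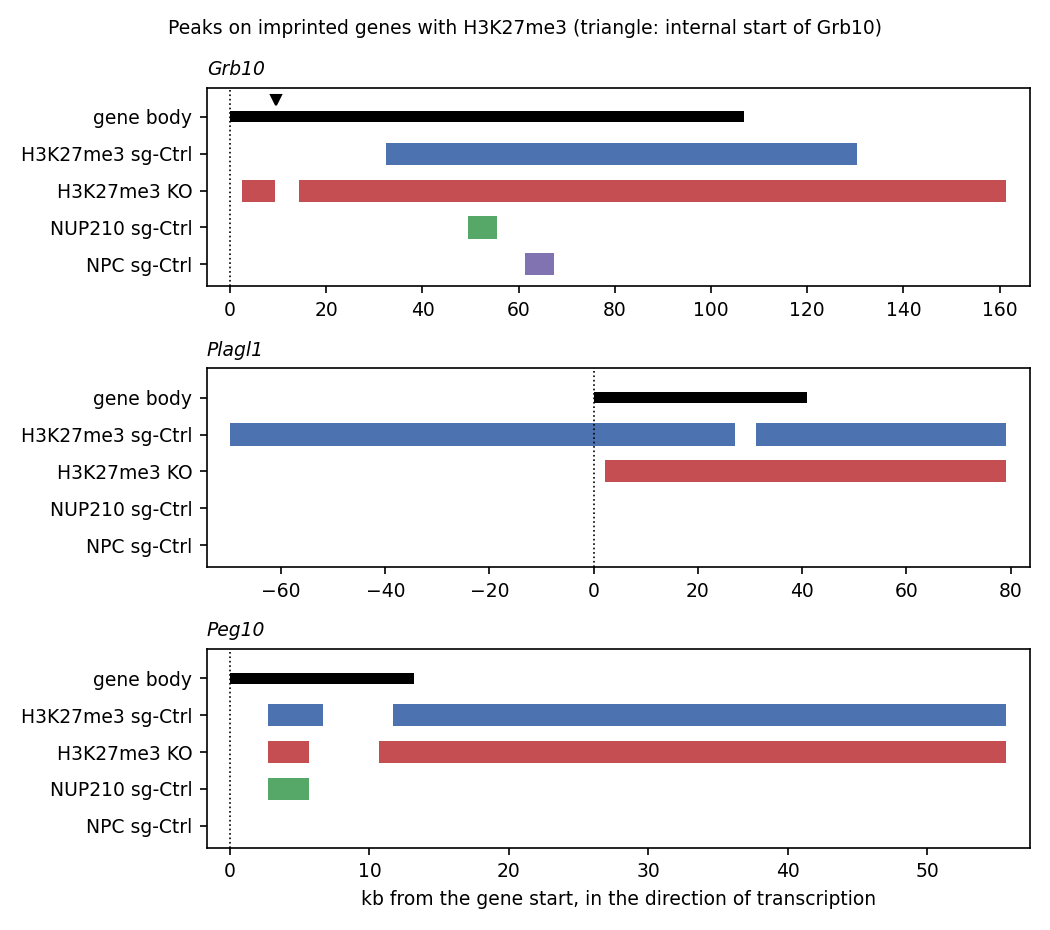
Peaks of H3K27me3 (sg-Ctrl and KO), NUP210 and NPC on Grb10, Plagl1 and Peg10 by distance from the gene start in kb (horizontal axis), with the gene body in black and the internal Grb10 start as a triangle. At Grb10 the KO peaks reach to 2.42 kb from the start where the sg-Ctrl peak ends at 32.4 kb, at Plagl1 the KO peak starts 2.21 kb inside the gene, and at Peg10 the NUP210 peak sits on the small H3K27me3 peak.

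Among 4231 genes with H3K27me3 in both lists, 38.2% had a greater covered length in KO and 22% a smaller one. The median change was 0 kb. These lengths were not adjusted for the KO library, which was 3.16 times as deep. Of the 3 members, Grb10 and Plagl1 had a greater covered length in KO, by 25 and 1.79 kb, and Peg10 an equal one. The Grb10 gain was larger than the change of 91.8% of these genes and the Plagl1 gain larger than that of 68.4%. At Plagl1 the direction depends on the measure, since the whole length of the peaks that met it was 145 kb in sg-Ctrl and 77 kb in KO.

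NUP210 and NPC peaks were on members in the shares given above for all genes, and the median fold over IgG was 1.19 over the NUP210 list and 1.10 over the NPC list. A listed peak was not always enriched, since 31.0% of NUP210 peaks and 48.3% of NPC peaks had an FDR above 0.05. For H3K27me3 this share was 4.48% in sg-Ctrl and 6.29% in KO. The NUP210 peak on Peg10, at chr6:4750000-4752999, held 137 reads against 82 IgG reads, with a fold of 1.65 and an FDR of 6.6e-08. Its fold was above that of 91.5% of NUP210 peaks. It had the same start and end as the small KO peak of H3K27me3, lay wholly inside the sg-Ctrl one, and was 20.0 kb from the nearest NPC peak. That small KO peak held 135 IgG reads in 3 kb, and the wide KO peak of Peg10 held 710 in 45 kb. Whether high IgG signal at this position has a part in the shared peak calls was not tested. On Grb10 the NUP210 peak at chr11:11982000-11987999 had 158 reads against 139, a fold of 1.12 and an FDR of 0.0893, so it did not pass 0.05.

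The NPC peak on Grb10, at chr11:11970000-11975999, had 156 reads against 186 IgG reads, from an IgG library larger than the ChIP library, with a fold of 1.38 and an FDR of 0.000188. It did not overlap the Grb10 NUP210 peak and was 6 kb from it. Both lay in the part of Grb10 that carried H3K27me3 in sg-Ctrl and in KO, away from the 5′ end where the KO cover was longer. No NUP210 or NPC peak was listed on Plagl1 or on any member with H3K4me3.

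The 4 members in no list encode or include the fetal growth factor IGF2, the Notch-related membrane protein DLK1, the maternally expressed noncoding RNA Meg3 and the zinc finger protein PEG3. None had a peak of any target on its gene body, nor of H3K4me3 within 4 kb of its TSS. The lists hold only regions that the caller reported and that meet a gene, so weaker signal at these genes would not appear in them. In windows of 100 kb on either side of each gene, H19, Igf2, Dlk1, Peg3 and Mest had no H3K27me3 peak in either condition. Meg3 did, through the downstream noncoding RNA Rian of the same cluster.

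Covered by H3K27me3 in these windows were 32.7 kb in sg-Ctrl and 51.7 kb in KO around Meg3, 57 and 90.7 kb around Igf2r, and 143 and 179 kb around Grb10. They were 115 and 103 kb around Peg10 and 183 and 109 kb around Plagl1, the latter with the same limit as above. The covered length was therefore greater in KO around 3 members, smaller around 2 and 0 in both around 5. In windows of 250 kb it was greater around 4, smaller around 3 and 0 in both around 3. The largest difference was around Mest, with 120 kb in 5 sg-Ctrl peaks and 35 kb in 1 KO peak. In every window a peak that met no gene body would not be listed. A difference in covered length there cannot be told apart from peaks left out of a list. Igf2r and Meg3 had no H3K27me3 on their own bodies, so what their windows held was on neighbouring genes.

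The neighbours of Igf2r include Airn, the paternally expressed noncoding RNA that starts inside Igf2r and silences the cluster, and the organic cation transporter genes Slc22a2 and Slc22a3. These 3 genes each had a greater covered length in KO. H3K27me3 covered 15.9 kb of Airn in sg-Ctrl and 33.9 kb in KO, in 3 and 5 peaks, 69.7 and 82.0 kb of Slc22a3, and 21.5 and 29.5 kb of Slc22a2. On Slc22a2, 3 sg-Ctrl peaks were replaced by 1 KO peak. In reads, the Airn peak with the same position in both lists, chr17:12811000-12813999, had a log2 ratio of -0.27 (-0.63 to 0.10), which spans 0. The Airn peak with the highest fold, 7.02 in sg-Ctrl and 6.35 in KO, began at 12821000 in both lists and was 9 and 7 kb wide. It had 58.5 (53.2 to 64.2) and 68.0 (64.3 to 71.9) scaled reads per kb, but 527 and 476 scaled reads in total. Another Airn peak began at 12856000 in both lists and was 11 and 24 kb wide. Its scaled reads per kb were 36.1 (32.3 to 40.1) and 27.5 (26.2 to 28.8). Counted over the Airn peaks of the respective list, the log2 ratio was -0.45. Over the joined regions, only partly filled by sg-Ctrl peaks, it was 0.78. The direction of the difference in Airn reads thus depended on the peak and on the measure. Airn had no H3K4me3 peak in either list.

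Around Meg3 the Rian peak started 19 kb earlier in KO. It covered 22.7 kb of Rian in sg-Ctrl and 41.7 kb in KO, and a NUP210 peak at chr12:109619000-109624999, with 215 reads against 122, a fold of 1.74 and an FDR of 2.1e-13, lay at the KO start of that peak. A further NUP210 peak on Rian, chr12:109639000-109665999 with a fold of 1.13 and an FDR of 0.0006, began where the sg-Ctrl peak of H3K27me3 began. Around Grb10, Ddc was covered on 45.0 kb in sg-Ctrl and 54.0 kb in KO. Around Peg10, Sgce was covered on 64.7 kb in sg-Ctrl and 52.7 kb in KO, and its peak with the same position in both lists had a log2 ratio of -0.78 (-0.96 to -0.60), lower than the median of such peaks.

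**Figure D5:**
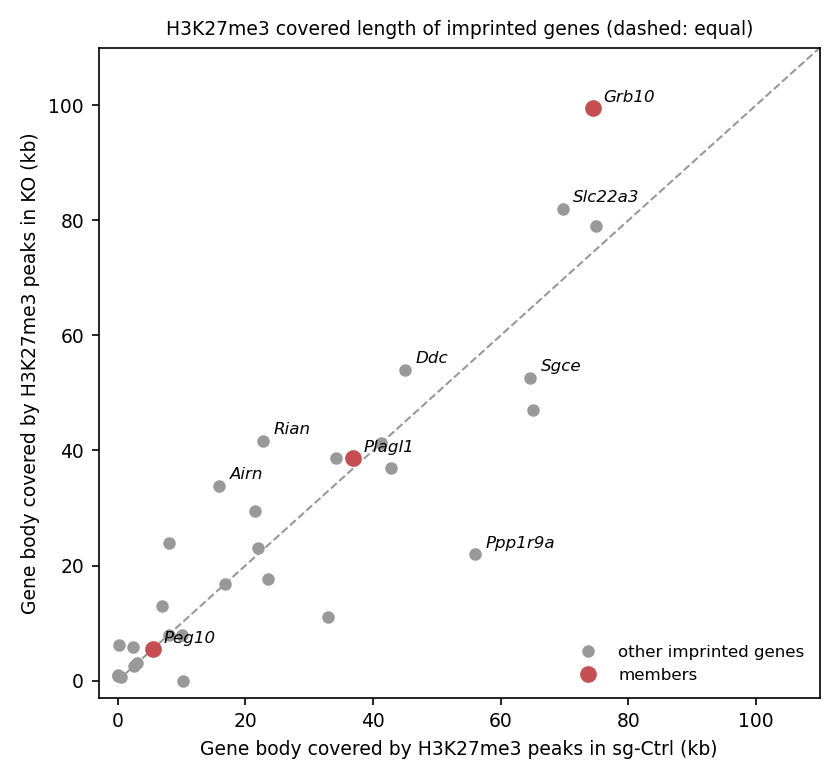
Length of each gene body covered by H3K27me3 peaks in sg-Ctrl (horizontal axis) and KO (vertical axis), in kb, for the members in red and other imprinted genes in grey. Grb10 (74.5 and 99.5 kb) is above the line of equal length with Airn, Rian and Slc22a3, Plagl1 (36.9 and 38.7 kb) and Peg10 (5.52 kb in both) are at the line, and Sgce and Ppp1r9a are below it.

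A list of 62 other imprinted genes gave the setting. Of these, 50 were in at least 1 list and 12 in none. H3K4me3 was at 27 in sg-Ctrl and 29 in KO, and among the 26 with it in both the median log2 ratio was -0.31, with 3 at least 2-fold lower, none 2-fold higher and a highest value of 0.37. H19 at 0.75 was thus above every gene of this list. H3K27me3 was at 26 in sg-Ctrl and 27 in KO, and among the 25 with it in both, the covered length was greater in KO at 12, smaller at 7 and equal at 6, the largest gain being 19 kb at Rian, below that of Grb10. Of the 62, 11 had both marks in KO and 7 in sg-Ctrl. NUP210 peaks met 26 and NPC peaks 21, and 20 had both, counting peaks of any FDR. Of all RefSeq genes, 23.8% had a NUP210 peak and 21.6% an NPC peak. In either condition, 48.2% of all RefSeq genes had H3K4me3, 22.1% had H3K27me3 and 3.39% had both marks.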

How the data were processed

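ChIP-seq peak lists of 4T1 cells were used for H3K27me3 and H3K4me3 in sg-Ctrl and KO and for NUP210 and NPC in sg-Ctrl. The submitters' processing notes name Trimmomatic, Bowtie2, Picard and STAR without versions. Peak calling by the authors used SICER with an IgG control and a window of 200 bp (H3K4me3) or 1000 bp (broad targets). For each peak the authors deposited raw counts of ChIP and IgG reads, a p-value, its FDR, and the fold over IgG, a ratio scaled by library size with 0.25 in place of 0 IgG reads. Total depth is unknown beyond the reads in peaks.

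The library size relative to IgG was recovered from counts and fold, as ChIP reads over IgG reads over fold: H3K27me3 gave 0.847 (sg-Ctrl) and 2.68 (KO), H3K4me3 gave 1.06 and 1.35, NUP210 gave 1.01 and NPC gave 0.606. Of several TSS peaks, the one with the most reads per kb was used. An overlap required 1 bp. Intervals are exact Poisson intervals for counts and, for ratios, exact Clopper-Pearson intervals of the share of reads in KO. No filter on FDR was applied beyond the authors' own. Alternatives were an FDR of at most 0.05 or 0.01, a fold of at least 2, other scalings, measures and windows.

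The members and the lists of other imprinted and marker genes were chosen with earlier results of these data known. All members are named. Of the 62 other genes, those are named with a 2-fold H3K4me3 difference, a mark in 1 condition alone or a NUP210 peak with an FDR of at most 0.05 and a fold of at least 1.5, and genes of a member's cluster. Blcap and Commd1 are named as genes that hold another imprinted gene. Positions are as deposited, and 8262 of 9355 genes matched by name (88.3%) had ends within 50 bp of GRCm38.p6. Promoters came from RefSeq on that build. The H3K4me3 ratio was tested on simulated reads, with the sg-Ctrl peak positions left unchanged, and the covered length on a small made-up example. The other steps were not tested on simulated data. RNA-seq, with 4 samples, was not analysed, and the 3 IgG samples entered only as the IgG reads given for each peak. Software was matplotlib 3.10.9, scipy 1.17.1, pandas 2.3.3 and numpy 2.4.6 under Python 3.11.15.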

Additional observations from a re-analysis of the deposited data

How the results depend on the processing

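No paired analysis was possible because each ChIP-seq condition has 1 library. For the same reason no library could be left out, and every comparison rests on 1 KO clone. The number of members at least 2-fold lower in H3K4me3 was 1 (Igf2r) and became 0 with libraries scaled by the reads of overlapping peaks, 0 relative to the median of all genes and 0 with no scaling, and 2 (Igf2r and Mest) by the authors' fold over IgG, where the 0 IgG reads at Mest set the value. In the same order, the genes at least 2-fold lower numbered 1178 as reported, then 153, 113, 233 and 2134, and with a limit of 1.5-fold 5040. Those at least 2-fold higher numbered 64 as reported, then 211, 268, 171 and 302, with a limit of 1.5-fold 204, and with total reads of the peak 217. Members with a greater H3K27me3 covered length in KO numbered 2, and 1 when the whole length of the peaks was counted. Members with a higher H3K27me3 read density in KO numbered 1, and 3 with no scaling, where the deeper KO library alone raises every value. The log2 ratio of Plagl1 was then 0.21 instead of -1.45. NUP210 peaks met 2 members, 1 with an FDR of at most 0.05, 1 with an FDR of at most 0.01 and 0 with a fold of at least 2, and NPC peaks met 1 member and 0 with that fold. Members with more H3K27me3 in KO in windows numbered 3 with 100 kb on either side, 3 with 50 kb and 4 with 250 kb, and those with less numbered 2 with 100 kb and 3 with 250 kb, where Mest was added.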

Other observations

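The 3 other imprinted genes at least 2-fold lower in H3K4me3 in KO were Kcnq1ot1, the noncoding RNA that silences the Kcnq1 cluster, with 504 and 195 scaled reads per kb (sg-Ctrl, KO) and a log2 ratio of -1.37 (-1.48 to -1.27), Herc3 with 735 and 266 and a ratio of -1.47, and Trappc9 with 854 and 368 and a ratio of -1.21. At Trappc9 the peak was 3200 bp wide in sg-Ctrl and 10800 bp in KO and its reads numbered 2898 and 5360, so its total scaled reads were higher in KO, with a log2 ratio of 0.54, while those of Kcnq1ot1 and Herc3 were lower, with -1.68 and -1.59. As background, Herc3 and Trappc9, like Igf2r, are known to hold another imprinted transcript inside the gene. Of other genes that hold 1 of the 62, H13 had a log2 ratio of -0.38, Blcap -0.34 and Commd1 -0.63. The median over all genes was -0.50. Kcnq1, which holds Kcnq1ot1, had no ratio because its TSS peak was listed in KO alone. The part of such transcripts in these ratios was not tested. In the Kcnq1 cluster the difference was not in 1 direction, since H3K4me3 peaks at the starts of Kcnq1 (61 reads) and Slc22a18 (103 reads) were listed only in KO, with 0 IgG reads in either peak, and the Tspan32 peak (142 reads) only in sg-Ctrl. Asb4, of the Peg10 cluster, had a TSS peak of 59 reads in KO alone.

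H3K27me3 was listed in 1 condition alone at 3 of the other imprinted genes. Slc38a4, an amino acid transporter gene, had it in sg-Ctrl alone, with 315 and 126 reads in 2 peaks. Mcts2 and H13, which lies around it, shared 1 peak of 1 kb with 133 reads against 7 IgG reads in KO alone. With an FDR no higher than 0.05 and a fold of 1.5 or more, NUP210 peaks numbered 10 on 7 of the other imprinted genes, of which Cobl, a neighbour of Grb10, had 4 and Rian, Ppp1r9a, Casd1, Snrpn, Rasgrf1 and Sfmbt2 had 1 each. The highest fold was 2.60 at Snrpn.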
